A study of Homo sapiens with 4 samples.

Results

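The genes described here encode enzymes and carriers of fatty acid oxidation, mainly mitochondrial, and of branched-chain amino acid breakdown. They were chosen by gene symbol from a list of 39 genes, of which 38 had a probe set on the array with that single symbol, out of 18417 genes in all. The list was made with earlier results of these data known. ACAD11, the remaining member, was not analysed here. The fatty acid arm held 18 measured genes, among them the peroxisomal thiolase ACAA1, and the branched-chain arm 17. ETFA, ETFB and ETFDH, which carry electrons from the dehydrogenases of both arms to ubiquinone, were kept apart from either arm.

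The series profiled U2-OS and HOS, established human osteosarcoma cell lines grown in DMEM with serum and antibiotics, on 4 single-colour arrays. The groups were U2-OS with OGE at 600 μg/mL for 24 h, U2-OS with OGE at 0 μg/mL for 24 h, HOS with OGE at 600 μg/mL for 24 h, and HOS with OGE at 0 μg/mL for 24 h, with 1 array in each. The labels do not spell out OGE and name no vehicle in the control cultures. Each line stands for 1 tumour, and there was no replicate within a line.

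Fatty acids enter mitochondria as carnitine esters, through CPT1A, the carrier SLC25A20 and CPT2. Each turn of oxidation then uses an acyl-CoA dehydrogenase, a hydratase, a hydroxyacyl-CoA dehydrogenase and a thiolase. Leucine, isoleucine and valine first lose their amino group to BCAT1 or BCAT2, and the branched-chain ketoacid dehydrogenase complex then commits their carbon skeletons to breakdown through steps that resemble fatty acid oxidation. Inherited loss of several of these enzymes causes metabolic crises on fasting or protein load, and medium-chain acyl-CoA dehydrogenase (ACADM) deficiency is the best known.

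Values are log2 levels made by RMA, a method that corrects background, equalises arrays and summarises probes. A change is the log2 level with OGE minus the log2 level without it, so -1 is a halving of signal. A gene was called by size when its change was at least 1 in either direction and its higher value was no lower than the median of its array, here termed the floor. Array medians lay between 3.58 and 3.62. The OGE and control arrays correlated over all probe sets at r = 0.968 in U2-OS and 0.980 in HOS. Of 8 measured osteoblast markers, 6 reached the array median in U2-OS with OGE, 5 in U2-OS without it, and 6 in each HOS array. IBSP and SPP1, which encode bone matrix proteins, were under it on all 4 arrays. Of 8 epithelial markers, 4 reached it in U2-OS with OGE and 5 on each of the other arrays, with KRT18 between 9.05 and 10.09 and KRT8 between 7.84 and 9.38. None of the 5 endothelial markers reached it on any array. Of 6 immune markers, CD68 alone reached it, and of 5 hepatocyte markers 2 did in U2-OS with OGE, 3 in U2-OS without it and 1 in each HOS array. PTPRC, the pan-leukocyte marker, lay between 1.28 and 1.48. Of 5 adipocyte markers, PLIN1 alone reached the array median, on all 4 arrays, and none was called by size with OGE. Some markers moved with OGE: the change in U2-OS was -1.75 for COL1A1, -1.40 for SPARC and -2.03 for CPS1, that of COL1A2 in HOS was -1.25, and CD68 rose by 1.35 in U2-OS and 1.05 in HOS. Their part in the results below was not tested. In bulk RNA, fewer cells of a kind and less RNA per cell cannot be told apart.

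With OGE, 4 members fell by at least 2-fold in both lines: HIBCH, DLD, BCKDHB and ACADM. Of these, 3 belong to the branched-chain arm and 1 to the fatty acid arm. Of the 10811 genes that reached the floor in each line, 1.09% fell in both and 0.768% rose in both. In U2-OS, 7 of the 37 members at the floor were called lower, against 7.88% of all genes there. In HOS, 5 of the 36 at the floor were called lower, against 2.18%. No member was called higher in either line, where 2.94% of all genes were in U2-OS and 1.70% in HOS. These all-gene shares take no account of gene span, which is described further below. The members were chosen with earlier results of these data known, so the contrast with all genes is a description and not a test. The 4 shared members are 4 of the 7 called in U2-OS and 4 of the 5 called in HOS. The remaining 30 measured members were called in neither line.

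**Figure D1:**
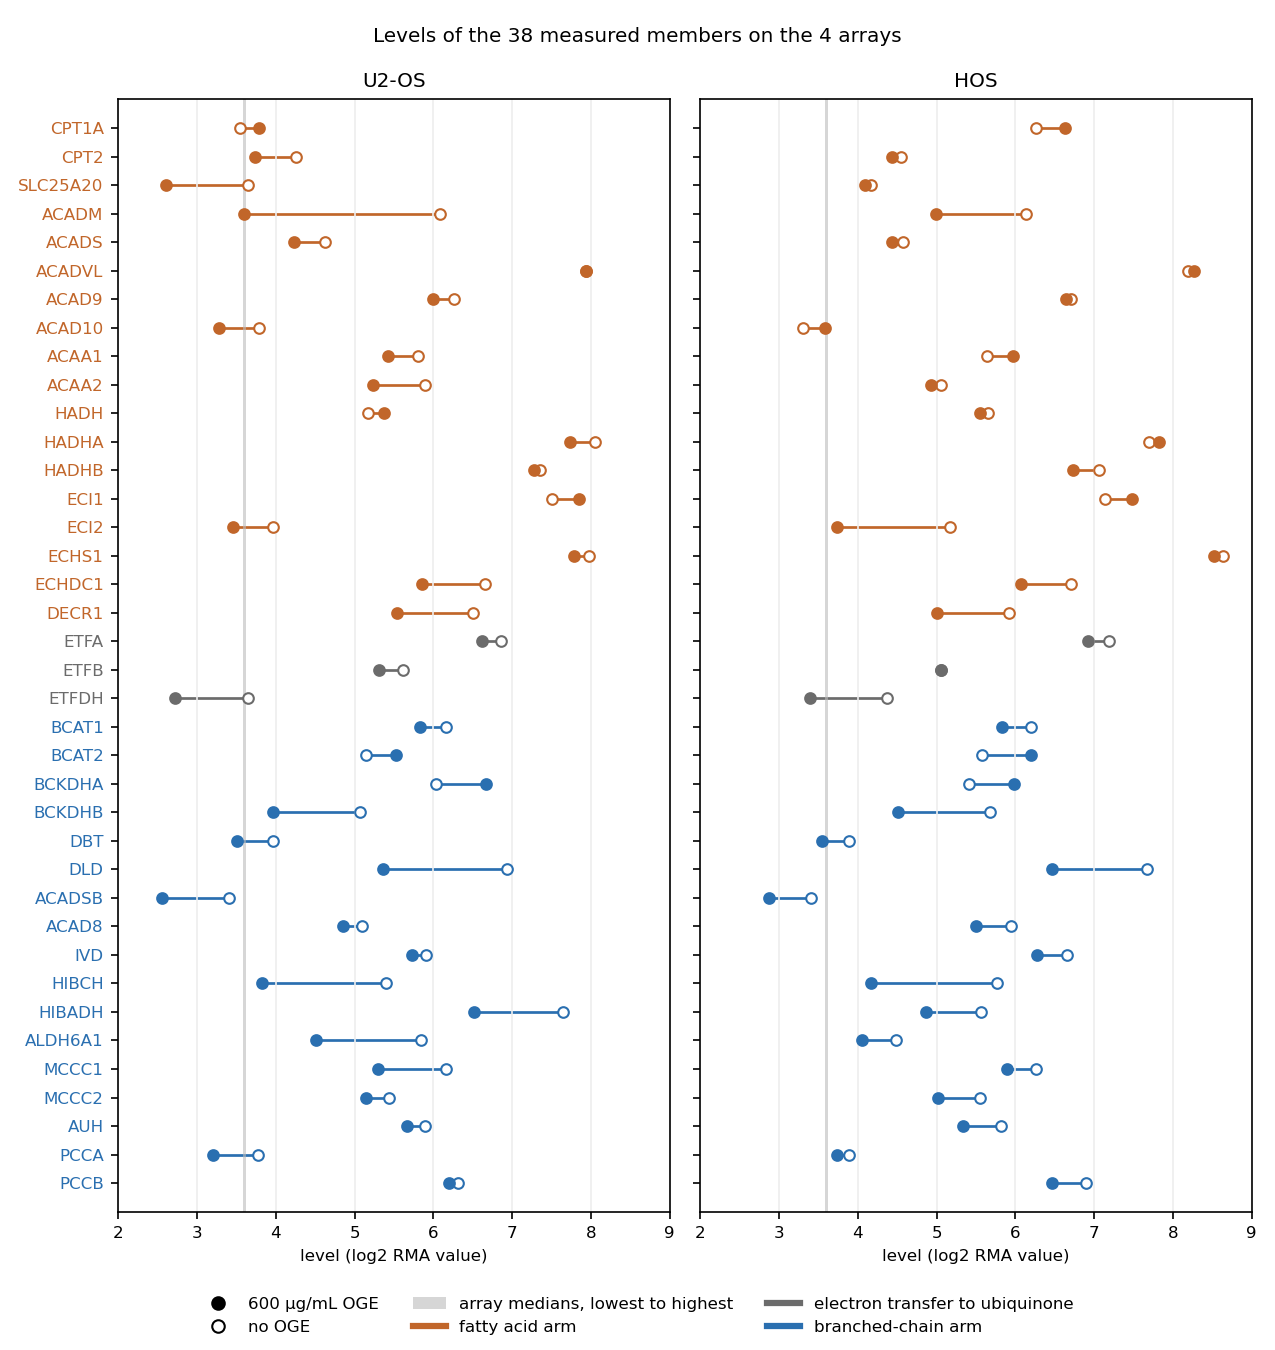
Log2 RMA level (horizontal axis) of each of the 38 measured members in U2-OS and HOS, with OGE as filled points and without OGE as open points. The grey band spans the array medians from 3.58 to 3.62; the longest line joins the ACADM values in U2-OS, 3.60 with OGE and 6.09 without.

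HIBCH, the hydrolase that frees 3-hydroxyisobutyrate from its CoA ester in valine breakdown, had nearly the same change in both lines. Its level was 3.82 with OGE and 5.40 without it in U2-OS, and 4.17 with OGE and 5.77 without it in HOS. The changes of -1.58 and -1.60 left 33.4% of the control signal in U2-OS and 33.0% in HOS. Both OGE arrays lay under both control arrays. In HOS it ranked 14 from the lowest change among 11334 genes at the floor.

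DLD, the dihydrolipoamide dehydrogenase subunit, serves the branched-chain ketoacid, pyruvate and 2-oxoglutarate dehydrogenase complexes and the glycine cleavage system. It was at 5.36 with OGE and 6.94 without it in U2-OS, and at 6.46 with OGE and 7.67 without it in HOS. The changes were -1.58 and -1.21, again with both OGE arrays under both control arrays. BCKDHB, the beta subunit of the decarboxylase of the branched-chain complex, was at 3.97 with OGE and 5.07 without it in U2-OS. In HOS it was at 4.51 with OGE and 5.68 without it. Its changes were -1.10 and -1.17. With the floor raised to the 75th percentile of each array, BCKDHB was not called in U2-OS, and HIBCH, DLD and ACADM were the members called in both lines.

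ACADM, which starts the oxidation of medium-chain acyl-CoAs, had the largest change of any member in U2-OS, and the fifth largest in HOS. Its level was 3.60 with OGE and 6.09 without it in U2-OS, a change of -2.49 that left 17.8% of the signal. In HOS it was at 4.99 with OGE and 6.14 without it, a change of -1.15 that left 45.1%. The control levels of the lines differed by -0.05 (U2-OS minus HOS), and the OGE levels by -1.39. In U2-OS it ranked 9 from the lowest change among 11506 genes at the floor.

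**Figure D2:**
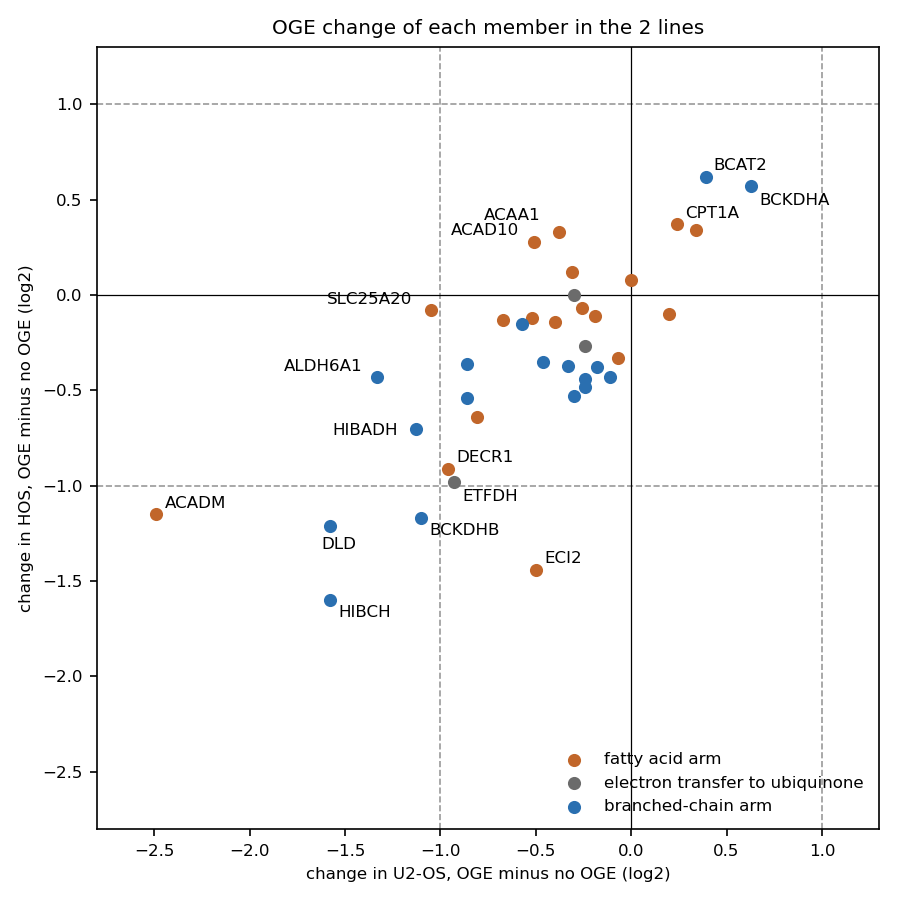
OGE minus no OGE (log2) in U2-OS on the horizontal axis and in HOS on the vertical axis, with 1 point per measured member coloured by arm and dashed lines at a change of 1 in either direction. HIBCH, DLD, BCKDHB and ACADM lie past -1 on both axes, and BCKDHA and BCAT2 lie farthest to the upper right.

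The stretches of 250 bases before the annotated start of these 4 genes are shown because the genes fell together. They are the RefSeq sequences of GRCh38.p14, written 5′ to 3′ on the strand of the gene. Capitals mark matches, on either strand, to GGGCGG (the SP1 motif) or CCAAT (the CCAAT box).
HIBCH, chr2:190319827-190320076, minus strand: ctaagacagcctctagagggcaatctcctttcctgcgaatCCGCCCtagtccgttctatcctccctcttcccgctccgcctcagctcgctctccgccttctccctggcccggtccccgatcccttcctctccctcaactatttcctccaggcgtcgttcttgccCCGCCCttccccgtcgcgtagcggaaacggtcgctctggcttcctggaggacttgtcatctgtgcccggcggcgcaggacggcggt
DLD, chr7:107890857-107891106, plus strand: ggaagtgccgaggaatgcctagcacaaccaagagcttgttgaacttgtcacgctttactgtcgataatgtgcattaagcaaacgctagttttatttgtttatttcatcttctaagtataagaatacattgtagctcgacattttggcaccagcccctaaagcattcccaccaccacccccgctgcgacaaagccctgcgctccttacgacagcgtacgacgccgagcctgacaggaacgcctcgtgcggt
BCKDHB, chr6:80106421-80106670, plus strand: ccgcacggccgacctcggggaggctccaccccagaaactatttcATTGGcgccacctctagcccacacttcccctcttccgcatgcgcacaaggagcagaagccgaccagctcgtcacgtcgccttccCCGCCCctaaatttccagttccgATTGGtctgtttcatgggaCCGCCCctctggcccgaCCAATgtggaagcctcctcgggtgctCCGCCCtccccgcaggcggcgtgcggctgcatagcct
ACADM, chr1:75724459-75724708, plus strand: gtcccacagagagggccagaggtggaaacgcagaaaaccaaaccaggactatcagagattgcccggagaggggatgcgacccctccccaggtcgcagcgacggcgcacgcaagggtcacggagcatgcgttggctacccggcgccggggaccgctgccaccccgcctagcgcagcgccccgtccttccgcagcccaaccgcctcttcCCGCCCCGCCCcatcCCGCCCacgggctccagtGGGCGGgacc

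The GGGCGG letters occurred 2 times in the HIBCH window, 3 times in that of BCKDHB and 4 times in that of ACADM, and neighbouring matches overlap in ACADM. The DLD window held neither motif and had a GC content of 49.6%, against 64.0% for HIBCH, 64.8% for BCKDHB and 70.8% for ACADM. CCAAT occurred 3 times in the BCKDHB window and in none of the other windows shown, and 11 of the 33 member windows (33.3%) held it, against 33.0% of all promoters. Windows were found for 33 of the 39 members, of which 25 (75.8%) held GGGCGG, against 42.3% of 27305 gene promoters of the same length. The median GC content was 65.2% in the members and 58.0% in all promoters. AAGGTCA, a motif of estrogen-related receptors, occurred in none of the 33 windows and in 3.46% of all promoters, and the PPAR-RXR element in none and in 0.0183%. TGATGNAA, the ATF4 and CHOP composite motif, occurred in 1 member window, that of BCAT1, and in 3.19% of all. The NRF1 motif occurred in the windows of ACAD9, AUH and PCCB, and in 5.53% of all. TGACGTCA, the cyclic AMP response element, occurred in the ACAD9 window and in 1.77% of all. These matches describe letters in the window and are not measured binding.

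In the carnitine shuttle, CPT1A, the gatekeeper of mitochondrial fatty acid entry, was at 3.79 with OGE and 3.55 without it in U2-OS, and at 6.63 with OGE and 6.26 without it in HOS. Its changes of 0.24 and 0.37 were under the size threshold. SLC25A20, the carnitine-acylcarnitine carrier, was at 2.60 with OGE and 3.65 without it in U2-OS, a fall of 1.05. In HOS it was at 4.09 with OGE and 4.17 without it, a change of -0.08. The U2-OS control value was close to that array's median of 3.58. CPT2, the inner membrane transferase, was at 3.74 with OGE and 4.26 without it in U2-OS, and at 4.43 with OGE and 4.55 without it in HOS.

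Among the other acyl-CoA dehydrogenases of fatty acids, none was called in either line. ACADVL, which takes very long chains, had changes of 0.00 in U2-OS and 0.08 in HOS at levels from 7.94 to 8.27. ACADS, for short chains, had -0.40 and -0.14. ACAD9, known also as an assembly factor of respiratory complex I, had -0.26 and -0.07. ACAD10 had -0.51 and 0.28, and in HOS it did not reach the floor. The large fall of ACADM was thus not shared in size by its relatives, although the differences between them were not tested.

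No enzyme of the later steps of each turn was called in either line. The trifunctional protein subunits HADHA and HADHB, which act on long chains, had changes of -0.31 and -0.07 in U2-OS, and of 0.12 and -0.33 in HOS. HADH, the short-chain hydroxyacyl-CoA dehydrogenase, had 0.20 and -0.10. The hydratase ECHS1, which also serves valine and isoleucine, had -0.19 and -0.11. ACAA2, the mitochondrial thiolase, had -0.67 and -0.13, and ACAA1, the peroxisomal thiolase, had -0.38 and 0.33. Over these 6 genes the median was -0.25 in U2-OS and -0.11 in HOS.

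Enzymes that handle unsaturated or unusual acyl-CoAs had lower medians, -0.66 in U2-OS and -0.78 in HOS over 4 genes. ECI2, an enoyl-CoA isomerase, was at 3.46 with OGE and 3.96 without it in U2-OS, and at 3.73 with OGE and 5.17 without it in HOS. The HOS fall of 1.44 passed the threshold and the U2-OS change of -0.50 did not. Its counterpart ECI1 had a change of 0.34 in each line. DECR1, the 2,4-dienoyl-CoA reductase, was at 5.54 with OGE and 6.50 without it in U2-OS, and at 5.01 with OGE and 5.92 without it in HOS. Its changes of -0.96 and -0.91 lay just inside the threshold. ECHDC1, which removes ethylmalonyl-CoA, had changes of -0.81 and -0.64.

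No electron transfer gene was called, and ETFDH had larger changes than ETFA or ETFB. After quantile normalization or cyclic loess, ETFDH was called lower in HOS. ETFDH, the oxidoreductase in the inner membrane, was at 2.72 with OGE and 3.65 without it in U2-OS, and at 3.39 with OGE and 4.37 without it in HOS. Its changes of -0.93 and -0.98 were just under the size threshold. ETFA and ETFB, the subunits of the soluble flavoprotein that feeds it, had -0.24 and -0.30 in U2-OS, and -0.27 and 0.00 in HOS.

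At the entry of the branched-chain arm, the transaminases had changes of opposite sign, none past the size threshold. BCAT1, the cytosolic form, was at 5.83 with OGE and 6.16 without it in U2-OS, and at 5.83 with OGE and 6.20 without it in HOS. BCAT2, the mitochondrial form, was at 5.53 with OGE and 5.14 without it in U2-OS, and at 6.20 with OGE and 5.58 without it in HOS. The changes were -0.33 and -0.37 for BCAT1, and 0.39 and 0.62 for BCAT2.

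Subunits of the branched-chain ketoacid dehydrogenase also had changes of opposite sign. BCKDHA, the alpha subunit that pairs with BCKDHB in the decarboxylase, was at 6.67 with OGE and 6.04 without it in U2-OS, and at 5.98 with OGE and 5.41 without it in HOS. Its changes were 0.63 and 0.57, where those of BCKDHB were -1.10 and -1.17. DBT, the transacylase core, had -0.46 and -0.35. BCKDHA and BCAT2 were the only members with changes above 0.5, and neither reached the size threshold.

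Valine steps after the complex held 3 of the 5 branched-chain members called in U2-OS and 1 of the 3 called in HOS. The all-gene shares of lower calls were 7.88% in U2-OS and 2.18% in HOS. In the group of longest gene span, which includes HIBCH and HIBADH, they were 15.4% and 2.98%. HIBADH, which oxidises 3-hydroxyisobutyrate, was at 6.51 with OGE and 7.64 without it in U2-OS, a fall of 1.13. In HOS it was at 4.87 with OGE and 5.57 without it, a change of -0.70. ALDH6A1, the methylmalonate semialdehyde dehydrogenase, was at 4.51 with OGE and 5.84 without it in U2-OS, a fall of 1.33, and at 4.05 with OGE and 4.48 without it in HOS, a change of -0.43. With the mean of its probe sets, the U2-OS change of ALDH6A1 was -0.74 and no longer called. ACAD8, the isobutyryl-CoA dehydrogenase, had -0.24 and -0.44. The median of the 4 valine genes was -1.23 in U2-OS and -0.57 in HOS.

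**Figure D3:**
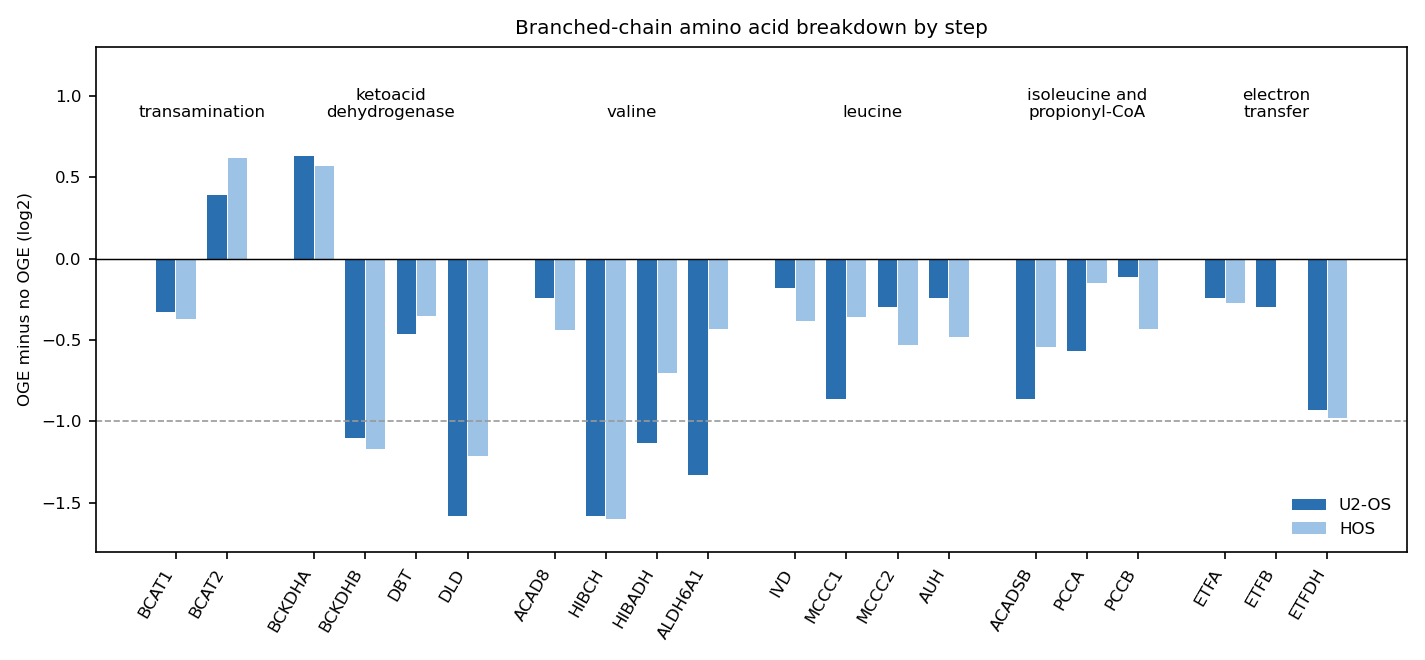
OGE minus no OGE (log2, bars from 0) for the branched-chain genes grouped by step and for the electron transfer genes, with U2-OS dark and HOS light and 1 value per bar. The dashed line marks -1; BCKDHA and BCAT2 are the genes whose bars point up, and no leucine gene reaches the line.

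No gene of the leucine steps was called. IVD, the isovaleryl-CoA dehydrogenase, had changes of -0.18 in U2-OS and -0.38 in HOS. MCCC1 and MCCC2, the subunits of methylcrotonyl-CoA carboxylase, had -0.86 and -0.30 in U2-OS, and -0.36 and -0.53 in HOS. AUH, the methylglutaconyl-CoA hydratase, had -0.24 and -0.48. Of the isoleucine and propionyl-CoA genes, ACADSB did not reach the floor in either line and had changes of -0.86 and -0.54. PCCA and PCCB, the subunits of propionyl-CoA carboxylase, had -0.57 and -0.11 in U2-OS, and -0.15 and -0.43 in HOS.

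The medians of the arms lay farther apart in HOS than in U2-OS. In U2-OS the median change was -0.39 in the fatty acid arm and -0.46 in the branched-chain arm, a difference of 0.07. In HOS the medians were -0.11 and -0.43, a difference of 0.33 (fatty acid minus branched-chain). The U2-OS difference became -0.07 when each change was centred on genes of similar span, and -0.005 with ECHS1 counted in the branched-chain arm, so it has no settled sign. The median of all genes was 0.03 in U2-OS and 0.02 in HOS. Changes below 0 in both lines were seen for 11 of 18 fatty acid genes, 15 of 17 branched-chain genes and 27.3% of all genes. The sets are unlike: in U2-OS 37 of the 38 members were at the floor, but 11506 of all 18417 genes. The all-gene share also takes no account of gene span. With 1 value of this difference per line, it was not tested.

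The changes in the lines correlated over the 38 members at r = 0.73 and over all 18417 genes at r = 0.44. The all-gene value includes many genes under the floor, and the members include few. The lines share no array, and genes do not count as replicates. Over the lines, HIBCH had a mean change of -1.59 ± 0.014 (SD, n = 2 lines), BCKDHB of -1.14 ± 0.050, DLD of -1.40 ± 0.26 and ACADM of -1.82 ± 0.95. The spread was small beside the change for HIBCH and BCKDHB and large for ACADM. The responses of SLC25A20 and ECI2 also differed in size between the lines, by -0.97 and 0.94 (U2-OS minus HOS). An interaction of line and OGE leaves no residual degree of freedom with 4 arrays, so these differences were not tested.

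With limma, which treated the lines as repeats of the OGE contrast, 0 of the 38 members passed a Benjamini-Hochberg adjusted p of 0.05 over all 18417 genes, as did 0% of all genes. At an unadjusted p under 0.05 there were 14 members, 12 of them lower, and 14.2% of all genes. The limma adjusted p was 0.228 for HIBCH, DLD, BCKDHB, ETFDH, DECR1 and ACADM alike, and 0.273 for BCKDHA, the member with the smallest p among those higher. After a further quantile normalization limma called 4 members, HIBCH with an adjusted p of 0.0296, DLD with 0.0392, ACADM with 0.0439 and BCKDHB with 0.0441, among 272 of all 18417 genes. These are the same 4 genes that were called by size in both lines. Both rules use the same changes on the same arrays, so the overlap is not separate support. Cyclic loess gave limma adjusted p-values from 0.0850 to 0.0884 for them and called 0.

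Gene span, the length of a gene on the genome, moved with the changes. Over all genes the median change was 0.16 in U2-OS and 0.07 in HOS in the shortest of 5 equal groups of genes by span, and -0.10 and -0.06 in the longest. Of genes at the floor in U2-OS, 2.05% were called lower in the shortest group, 12.3% in the next to longest and 15.4% in the longest. The same shares in HOS were 0.905%, 3.90% and 2.98%. None of the 38 members was in the shortest group, and 13 and 9 were in the next to longest and the longest. Within groups, the member medians in U2-OS were -0.19, -0.50, -0.51 and -0.57 in order of rising span, and those in HOS were 0.08, -0.13, -0.43 and -0.37. After each change was centred on its span group, HIBCH was at -1.48 in U2-OS and -1.54 in HOS, DLD at -1.60 and -1.23, BCKDHB exactly at the threshold and at -1.11, and ACADM at -2.43 and -1.14. All 4 kept their calls in both lines, while SLC25A20 lost its call in U2-OS with -0.99. Centring moved each change only by the median of its span group, so it could remove only calls close to the threshold. It takes no account of the larger shares of lower calls in the longer groups.

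Between the lines, 2 members passed the size rule with and without OGE. CPT1A was lower in U2-OS, by 2.84 with OGE and 2.71 without it, which is 7.16-fold and 6.54-fold. Its U2-OS levels of 3.79 and 3.55 lay near the array medians, and its HOS levels of 6.63 and 6.26 did not. HIBADH was higher in U2-OS, by 1.64 with OGE and 2.07 without it. Of all genes at the floor, 3.17% were lower in U2-OS whatever the treatment and 3.0% were higher. When limma took the treatment states as repeats, CPT1A had a difference of -2.78 ± 0.17 (SE) with an adjusted p of 0.0258, and HIBADH of 1.86 ± 0.20 with an adjusted p of 0.0415. The limma background was 1.92% of all genes. Each line was represented by 1 control and 1 OGE array.

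Another 5 members passed the size rule between the lines in 1 state only, 4 lower and 1 higher in U2-OS, against 5.57% of all genes lower and 7.12% higher. With OGE, SLC25A20 was lower in U2-OS by 1.49, ACADM by 1.39 and DLD by 1.10, where without OGE the differences were -0.52, -0.05 and -0.73. Without OGE, ECI2 was lower in U2-OS by 1.21 and ALDH6A1 higher by 1.36, and with OGE the differences were -0.27 and 0.46.

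Other genes of the pathway were examined in a list of 66, of which 58 were measured. In U2-OS, 1 was called higher and 3 lower, and in HOS 0 higher and 2 lower, with none called in both lines. Of these genes, 37 were at the floor in U2-OS and 36 in HOS. The all-gene shares of lower calls were 7.88% and 2.18%, with 1.09% lower in both lines. Those of higher calls were 2.94% in U2-OS and 1.70% in HOS. ABCD3, a transporter of peroxisomes, fell by 2.07 in U2-OS and had -0.96 in HOS. HSD17B4, the peroxisomal bifunctional enzyme, fell by 1.34 in U2-OS and had -0.65 in HOS. OXCT1, which activates ketone bodies, fell by 1.02 in U2-OS and had -0.72 in HOS. In HOS, ACAT1, the thiolase of isoleucine and ketone bodies, and MMUT, the methylmalonyl-CoA mutase, each fell by 1.15, against changes of -0.20 and -0.50 in U2-OS.

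Regulators of these pathways had a median change of 0.08 in U2-OS and -0.07 in HOS over 16 genes. PPARG, a nuclear receptor of lipid metabolism, was at 4.62 with OGE and 3.59 without it in U2-OS, and at 4.18 with OGE and 4.15 without it in HOS. Its U2-OS change of 1.03 was the only call among the regulators. Of these, 11 were at the floor in U2-OS, where 2.94% of all genes were called higher. PPARA had -0.52 and -0.29, and ESRRA 0.67 and 0.41. PPARGC1A, a coactivator of mitochondrial genes, lay between 1.28 and 1.64 on the 4 arrays, under every array median. BCKDK, the kinase that inactivates the branched-chain complex, had 0.06 and 0.09, and PPM1K, the phosphatase that activates it, lay under the array medians.

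**Figure D4:**
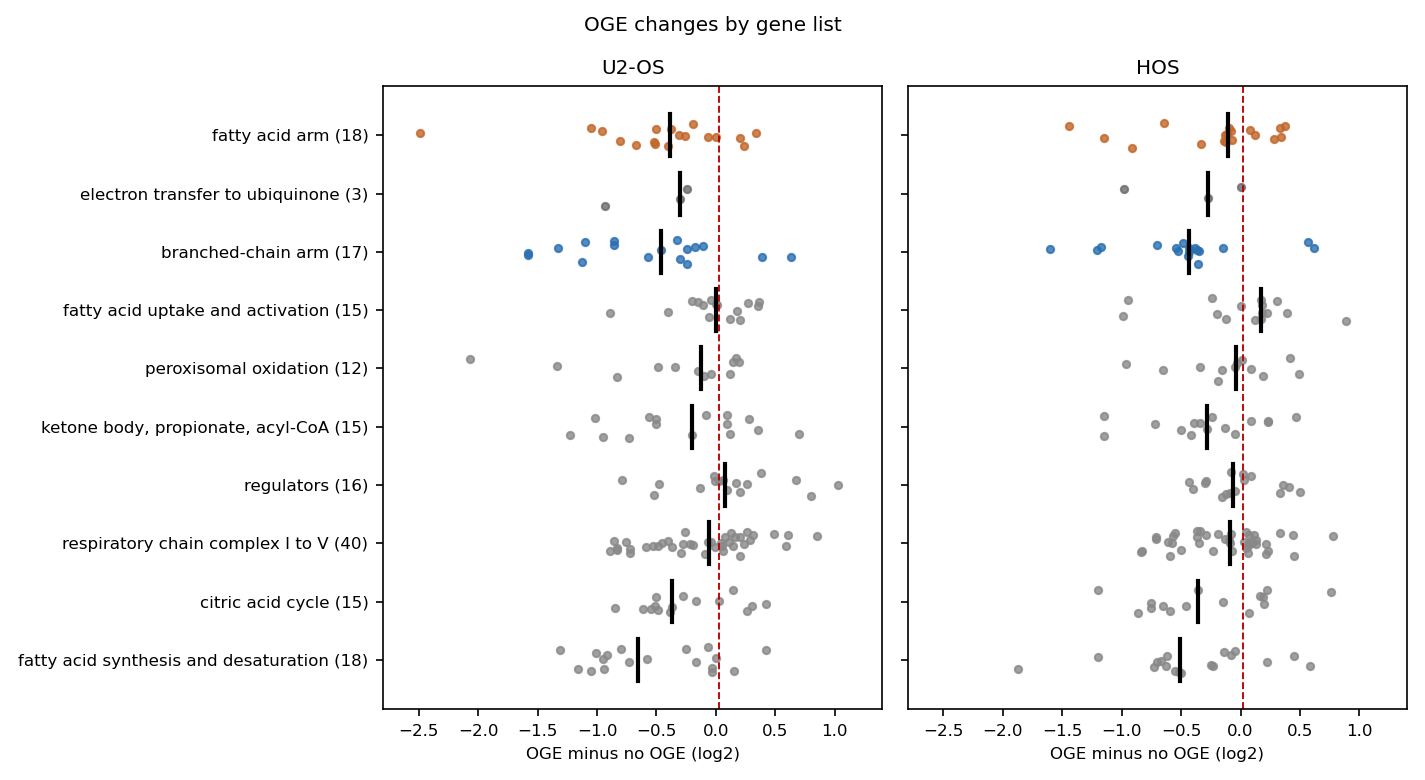
OGE minus no OGE (log2) of each measured gene by list in U2-OS and HOS, with the number of genes in brackets, a black bar at each list's median and a dashed line at the median of all genes. The branched-chain bar is at -0.46 in U2-OS and -0.43 in HOS, and that of the respiratory chain at -0.06 and -0.09; points are spread vertically only for visibility.

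Among neighbouring mitochondrial and lipid pathways, the respiratory chain and ATP synthase list had medians of -0.06 in U2-OS and -0.09 in HOS over 40 genes, with no gene called in either line. The citric acid cycle list, which also holds PC and the pyruvate dehydrogenase subunits PDHA1, PDHB and DLAT, had -0.37 and -0.36 over 15 genes. All were at the floor in both lines, and 1, the pyruvate dehydrogenase subunit PDHB, was called lower in HOS. Fatty acid synthesis and desaturation genes had -0.66 and -0.51 over 18 genes. Of these, 4 of 16 at the floor were called lower in U2-OS and 2 of 17 in HOS. The all-gene shares of lower calls were 7.88% in U2-OS and 2.18% in HOS. In U2-OS the changes called were -1.16 for ACACA, -1.31 for FADS1, -1.05 for FADS2 and -1.01 for HSD17B12. In HOS they were -1.87 for ELOVL2 and -1.20 for ELOVL6. No gene of these 3 lists was called in both lines, where 1.09% of all genes were called lower. Changes below 0 in both lines were found for 72.2% of the fatty acid synthesis genes, 46.7% of the citric acid cycle genes and 42.5% of the respiratory chain genes, and for 73.7% of the 38 members. The median over the 38 members was -0.39 in U2-OS and -0.34 in HOS. The difference between the lists was not tested.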

How the data were processed

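RNA was measured on 1 array per sample for 4 samples, U2-OS and HOS each with OGE and without it. The deposited values are log2 and were made by the authors with RMA, per the submitters' processing notes; the log base was taken from their range, no RMA version is named in the labels, and values carry 2 decimals. The number of arrays limits the precision.

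The 33297 probe sets were named from the platform annotation of 2016, which gives 1 symbol for 19460, several for 1754 and none for 12083. Symbols were updated by gene ID through the RefSeq table of GRCh38.p14, and the probe set with the highest mean stood for each of 18417 genes. The members and lists were chosen with earlier results of these data known. Calls by size needed a log2 change of at least 1 and a higher value at or above the array median. limma 3.58.1 under R 4.3.3 fitted terms for OGE and for the line across the whole table, with 1 residual degree of freedom before moderation and Benjamini-Hochberg adjustment, and was tested on simulated data. The spread behind its p-values was, before moderation, how far the OGE change of a gene differed between the lines, mixed with array-to-array spread. Nothing says that samples came from separate cultures, so the array part may be technical. The p-values do not measure spread between repeats within a line. Values on all arrays are given for members called by size in a line, or between the lines in both states, and for the entry steps of each arm (CPT1A, CPT2, BCAT1, BCAT2, BCKDHA, BCKDHB). Of the other lists, genes called by size are named. DECR1, ETFDH, the uncalled regulators and the genes of the closing observations were added after their values were seen. Gene spans and promoters came from RefSeq, with 1 window per gene. Alternatives were other thresholds and floors, quantile normalization, cyclic loess, the mean of probe sets, centring on span, other arm assignments and other limma settings. The labels name no batch.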

Additional observations from a re-analysis of the deposited data

Results flagged for a closer look

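ACAD10, ACAA1, HADH and HADHA had changes with OGE of opposite sign in the lines, each of at least 0.1 on the log2 scale. The difference of the responses (U2-OS minus HOS) was -0.79 for ACAD10, with -0.51 in U2-OS and 0.28 in HOS. It was -0.71 for ACAA1, with -0.38 and 0.33. It was 0.30 for HADH, with 0.20 and -0.10. It was -0.43 for HADHA, with -0.31 and 0.12. None of these changes was called by size, each rests on 1 array per group, and the differences were not tested.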

How the results depend on the processing

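Calls by size followed the threshold. At 1.5-fold, 13 members were called in U2-OS, 10 in HOS and 6 between the lines in both states. At 3-fold, 1 was called in U2-OS (ACADM), 1 in HOS (HIBCH) and 2 between the lines. All-gene shares of calls by size were worked out for the main setting only, so the counts at other settings have no background. Without a floor, with a floor at the 75th percentile, after quantile normalization, cyclic loess, the mean of probe sets or centring on span, counts stayed between 5 and 7 in U2-OS and between 4 and 6 in HOS. The difference between the arms in U2-OS changed sign to -0.07 with centring on span and to -0.005 with ECHS1 in the branched-chain arm; the cause was not tested. For OGE, limma called 4 members once quantile normalization was added, among 272 of all 18417 genes. It called 0 members with cyclic loess, dim genes left out, trend and robust moderation, the mean of probe sets or no line term. Between the lines it called 4 after quantile normalization, among 1766 of all 18417 genes, and 1 without the OGE term, among 131. It called 3 with trend and robust moderation, among 1309. In the other settings it called 2, among 354 genes in the main fit and 1326 with cyclic loess. The cause was not tested. The floor at the 75th percentile lost SLC25A20 and BCKDHB in U2-OS and ECI2 in HOS, centring on span lost SLC25A20 in U2-OS, and the mean of probe sets lost ALDH6A1 in U2-OS; quantile normalization and cyclic loess each added ETFDH in HOS. No paired analysis was possible by replicate number because the labels give none; the line term of limma pairs the arrays of a line, and leaving it out called 0 members for OGE. No array could be left out because each group has 1.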

Other observations

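DLD is shared with other dehydrogenase complexes, and the subunits of those given here had smaller changes in U2-OS. In HOS the change of PDHB was nearly that of DLD, and the others were smaller. In the pyruvate dehydrogenase complex, PDHA1 had -0.37 in U2-OS and -0.86 in HOS, PDHB had -0.51 and fell by 1.20, and DLAT had -0.55 and -0.65. In the 2-oxoglutarate dehydrogenase complex, OGDH had -0.50 and -0.46, and DLST had 0.30 and -0.15. DLD itself had -1.58 and -1.21.

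Genes that act on the electron transfer flavoprotein, or that make or carry FAD, were also measured. ETFRF1, a small protein that acts on the flavoprotein, had a change of -1.23 in U2-OS and -0.34 in HOS but did not reach the floor. FLAD1, which makes FAD, had 0.70 and 0.23, and SLC25A32, a mitochondrial carrier of FAD or folate, had -0.56 and -0.50.

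A second probe set of ALDH6A1 lay between 1.47 and 1.72 on the 4 arrays, under every array median, and had changes of -0.15 in U2-OS and 0.03 in HOS. The 2 probe sets of MCCC2 held identical values on all 4 arrays and count as 1 measurement.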
